A study of Homo sapiens and Mus musculus with 19 samples.

Results

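Forced activation of NF-kB was compared with an empty vector in 5 human non-small cell lung cancer lines, on 10 of the 19 arrays of the series: the 5 arrays labelled IKK and the 5 labelled MIG, joined by cell line. A549 is labelled a lung carcinoma, H358 a bronchioalveolar carcinoma, and H23, HCC827 and PC9 lung adenocarcinomas. All 10 cultures carried the retrovirus MiG and were sorted for its green fluorescent protein. The control cells, called MiG here, held the vector without an insert, and the IKKb cells held the same vector with IKKβ whose serines 177 and 181 were replaced by glutamate. Each line and vector was measured once on a single-colour array, and the rule that picked the arrays used their labels and no measured value. The labels do not give the time after transduction or the amount of protein made, and a sorted pool can hold cells with different numbers of vector copies. A higher signal in such a pool may come from more responding cells or from more RNA per cell, which cannot be told apart.

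NF-kB is a family of paired transcription factors held in the cytoplasm by inhibitors, the IkB proteins. IKKβ, a kinase of the IkB kinase complex, marks these inhibitors for destruction, and replacing its activation-loop serines by an acidic residue keeps it active without an upstream signal. The freed subunits switch on chemokines, cytokines, adhesion molecules and survival genes, together with their own inhibitors, and in lung tumours this programme is known for drawing in immune cells.

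Signals were deposited as MAS5 intensities scaled to a trimmed mean of 500. The ratio of a line is the log2 of its IKKb signal plus 16 over its MiG signal plus 16, so folds of dim genes are understated. A gene was read from its brightest probe set and tested where it exceeded the 40th percentile of the array, a signal of 28.7 to 44.6 on these 10 arrays, on at least 5 of the 15 human arrays. This left 15212 of 19775 genes. Counts of lines that were higher or lower rest on that probe set, and other probe sets are given where they differ in direction or by much. Median signals of the 10 arrays ran from 51.3 to 76.5. Of 6 epithelial markers, 5 exceeded the 40th percentile on all 10 arrays, and the exception, KRT19, was at 2.15 and 5.75 in H23. Lung lineage markers were mostly low, with 2 of 12 above that percentile on all 10 arrays. Their summed signal was 702 to 3649 with MiG and 733 to 2353 with IKKb. Of 11 leukocyte markers 0 were above it on all 10 arrays, and PTPRC, which marks nearly all leukocytes, was at 14.96 to 37.3 with MiG and 13.2 to 28.7 with IKKb. ITGAM exceeded that percentile on 4 of 5 MiG and 5 of 5 IKKb arrays, with 502 and 654 in H23. CSF1R did so on 5 of 5 and 4 of 5. The leukocyte sum was 324 to 838 with MiG and 321 to 1163 with IKKb. For fibroblasts and endothelium 3 of 13 markers exceeded that percentile on all 10 arrays, and their sum was 1387 to 3551 with MiG and 1134 to 3406 with IKKb.

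The H358 IKKb array stood apart from the other arrays of its line. Its Dap spike-in signal was 4376, against 1128 on the H358 MiG array, and its ratio of 3' to 5' actin signal was 1.74 against 1.41. The PC9 pair also differed in Dap, at 4354 with IKKb and 2376 with MiG, whereas the A549 pair was at 161 and 159, the H23 pair at 3385 and 3695 and the HCC827 pair at 3747 and 3692. Means and medians that leaving out H358 moved by over 1.5 times or past 0 are therefore given with and without it, and the part of this difference in them was not tested.

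Across the 5 lines no gene passed the threshold of limma, an adjusted p of 0.05. Among genes higher in all 5 lines the mean log2 ratio was highest for the chemokine gene CCL5 (3.05), the cystatin gene CST1 (2.89) and the cytokine genes IL32 (2.76) and LTB (2.70). The share of genes called was 0% in either direction. At an unadjusted p below 0.05, 361 genes were higher with IKKb (2.37% of those tested) and 478 lower (3.14%). A gene was higher in all 5 lines in 500 cases (3.29%) and lower in all 5 in 734 (4.83%). When a mean change of at least 2-fold was also asked for, 25 genes were left above MiG (0.164%) and 4 below it (0.0263%). The 25 were the chemokines CCL5, CCL20, CXCL1, CXCL2 and CXCL8, the cytokines IL6, IL32 and LTB and the cytokine subunit EBI3, the NF-kB subunit RELB and feedback regulator TNFAIP3, the complement genes C1S and C3, the cystatins CST1 and CST4, and COXFA4L3, CD82, GIMAP5, ICAM1, KLRC3, NEURL3, NIBAN1, SLC2A6, SOD2 and TNFRSF11B. The 4 lower genes were CEL, EMILIN3, MIR210HG and ZNF488. With A549 left out the count of higher genes was 54, with H23 left out it was 39, and with H358 left out it was 20. The lower count then lay between 7 (without H358) and 18 (without H23). Both counts depend on the added 16, since adding 64 gave 14 higher and 0 lower genes and adding 1 gave 58 and 56. A p-value here weighs a gene's mean against a spread that also draws on other genes and on the 5 arrays of another vector. That spread mixes differences in response between lines with array noise, because each line was measured once per vector. For a single gene, flipping the signs of the 5 lines in an exact permutation test, two-sided, cannot go below 0.0625, so no gene could reach 0.05 by that route.

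The lines differed in how many genes moved by 2-fold. In H358, 464 genes were at least 2-fold higher (3.05%) and 597 at least 2-fold lower (3.92%). HCC827 had 432 (2.84%) and 483 (3.18%). H23 had 391 (2.57%) and 214 (1.41%), PC9 239 (1.57%) and 379 (2.49%), and A549 144 (0.947%) and 287 (1.89%). Dim genes made up most of these counts. Among the 7606 brighter genes, H358 had 77 higher and 90 lower, HCC827 42 and 14, H23 16 and 7, PC9 9 and 10, and A549 8 and 8. These are values of single array pairs, with no replicate within a line. Of all tested genes, 1185 were 2-fold higher in 1 line, 180 in 2 lines, 32 in 3, 6 in 4 and 1 in all 5. The last was IL32, and the 6 were CCL5, CD74, CST1, CXCL10, DACT3-AS1 and TGM5. On the lower side 1429 genes were 2-fold lower in 1 line, 237 in 2, 19 in 3 and 0 in 4 or 5.

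**Figure D1:**
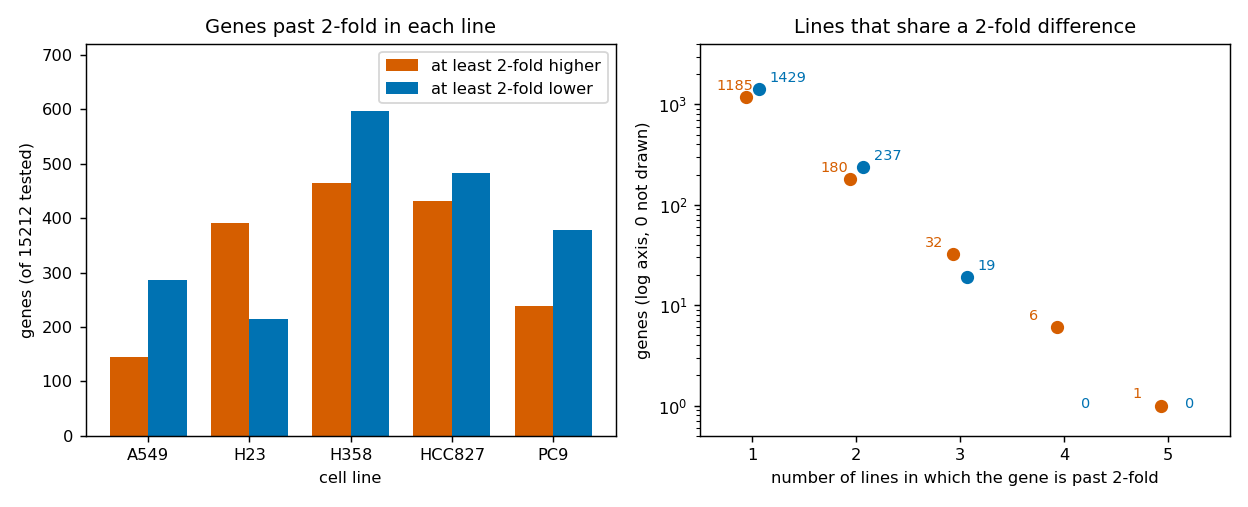
Left, bars give the number of the 15212 tested genes at least 2-fold higher or lower with IKKb than with MiG in each line, 1 array pair per line; right, points give on a log axis how many genes were past 2-fold in 1 to 5 lines, with each count printed and counts of 0 not drawn. H358 had the most genes in both directions, and the counts drop from 1185 higher and 1429 lower in 1 line to 1 and 0 in all 5.

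IL32, a proinflammatory cytokine, was the single gene at least 2-fold higher in every line once 16 was added to the signals. Its signals with MiG were 142, 35.96, 25.05, 302 and 6.97 in A549, H23, H358, HCC827 and PC9, and with IKKb 459, 142, 1162, 2132 and 169. Every line gained signal, and the spread of levels between lines was wide enough that the MiG and IKKb groups overlapped. The folds were 3.01, 3.04, 28.7, 6.76 and 8.07 in the same order, and the mean log2 ratio was 2.76 ± 1.33 (SD, n = 5) with a limma adjusted p of 0.404. Without H358 the mean was 2.24. CCL5, an attractant of T cells, had MiG signals of 16.5, 329, 1.56, 58.6 and 4.46 in that order and IKKb signals of 38.5, 3247, 2619.7, 144 and 139. It was nearly silent in H358 without the kinase and among the brighter genes with it, and in A549 it stayed dim. There its log2 ratio with 16 added was 0.74, short of 2-fold, while the signals as deposited differed by more than 2-fold. Its mean log2 ratio was 3.05 ± 2.58 (SD, n = 5) with a limma adjusted p of 0.829, and 2.002 without H358. LTB, the membrane-anchoring chain of lymphotoxin, had MiG signals of 51.3, 41.6, 61.7, 125 and 65.8 and IKKb signals of 74.6, 72.2, 2572, 3506 and 531. H358 and HCC827 gained most and A549 and H23 least. The LTB mean was 2.70 ± 2.17 (SD, n = 5), but a dimmer LTB probe set gave -0.10.

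CXC chemokines, most of which attract neutrophils, were higher in some lines far more than in others. Of 10 measured members, 3 were higher in all 5 lines and 0 were lower in all 5, 6 had an unadjusted limma p below 0.05 above MiG, and the median of their mean log2 ratios was 1.06 (0.75 without H358) against -0.01 over all tested genes. For this and every later list, 3.29% of all tested genes were higher in all 5 lines and 4.83% lower. At an unadjusted limma p below 0.05, 2.37% of all tested genes were higher. CXCL8, the main human neutrophil attractant, had MiG signals of 728, 1352, 6089.6, 833 and 194 and IKKb signals of 3358, 1459, 6646, 11728 and 1304. A549, HCC827 and PC9 gained, by 4.53-fold, 13.8-fold and 6.28-fold, while H23 and H358, which were brightest without the kinase, were within 1.09-fold. A further CXCL8 probe set was lower in both of these, at -0.70 in H358 and -0.02 in H23, and higher in the other 3 lines. CXCL2 had MiG signals of 1633, 2109.9, 505, 306 and 100.0 and IKKb signals of 2148, 2314, 2448, 2475 and 205. Here H358 and HCC827 gained most, and 4 of the 5 lines ended close together, between 2148 and 2475. A dimmer CXCL2 probe set had a mean log2 ratio of 0.19 and was higher in 4 of 5 lines. CXCL1 had MiG signals of 1232, 1493, 552, 115 and 125 and IKKb signals of 1993, 1806, 1668, 627 and 288, a mean log2 ratio of 1.19 ± 0.79 (SD, n = 5). CXCL10, a ligand of the T cell receptor CXCR3, was lower in A549 at a log2 ratio of -1.05 and higher in the other 4 lines, by 1.37 to 2.50. CXCL5 was higher by 3.66 in H358 and 3.51 in HCC827 and between -0.04 and 0.39 in the other lines, although A549 had by far the highest CXCL5 signal, 7666 with MiG.

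Among CC chemokines, CCL5, CCL20 and CCL2 differed widely between lines. Of 6 measured members, CX3CL1 included, 3 were higher in all 5 lines, 0 were lower in all 5, and the median was 1.35, or 0.95 without H358. CCL20, which attracts immature dendritic cells and Th17 cells, had MiG signals of 2.61, 1565, 93.9, 13.8 and 5.19 and IKKb signals of 4.47, 1960.3, 3658, 952 and 22.2. It was near background in A549 and PC9 with both vectors, already high in H23, and gained most in H358 and HCC827. The MiG signal in HCC827 lay below the 40th percentile, so the size of that gain depends on the added 16. CCL2, a monocyte attractant, had MiG signals of 666, 7212, 13.04, 927 and 3.82 and IKKb signals of 1494, 11132, 1015, 11087 and 3.73, higher in 4 of 5 lines and without signal above background in PC9. CX3CL1, which is made as a membrane-bound chemokine, had a mean log2 ratio of 0.60 ± 0.33 (SD, n = 5) and was higher in all 5 lines, from 0.16 to 0.91. A dimmer CX3CL1 probe set was higher in 3 of 5.

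**Figure D2:**
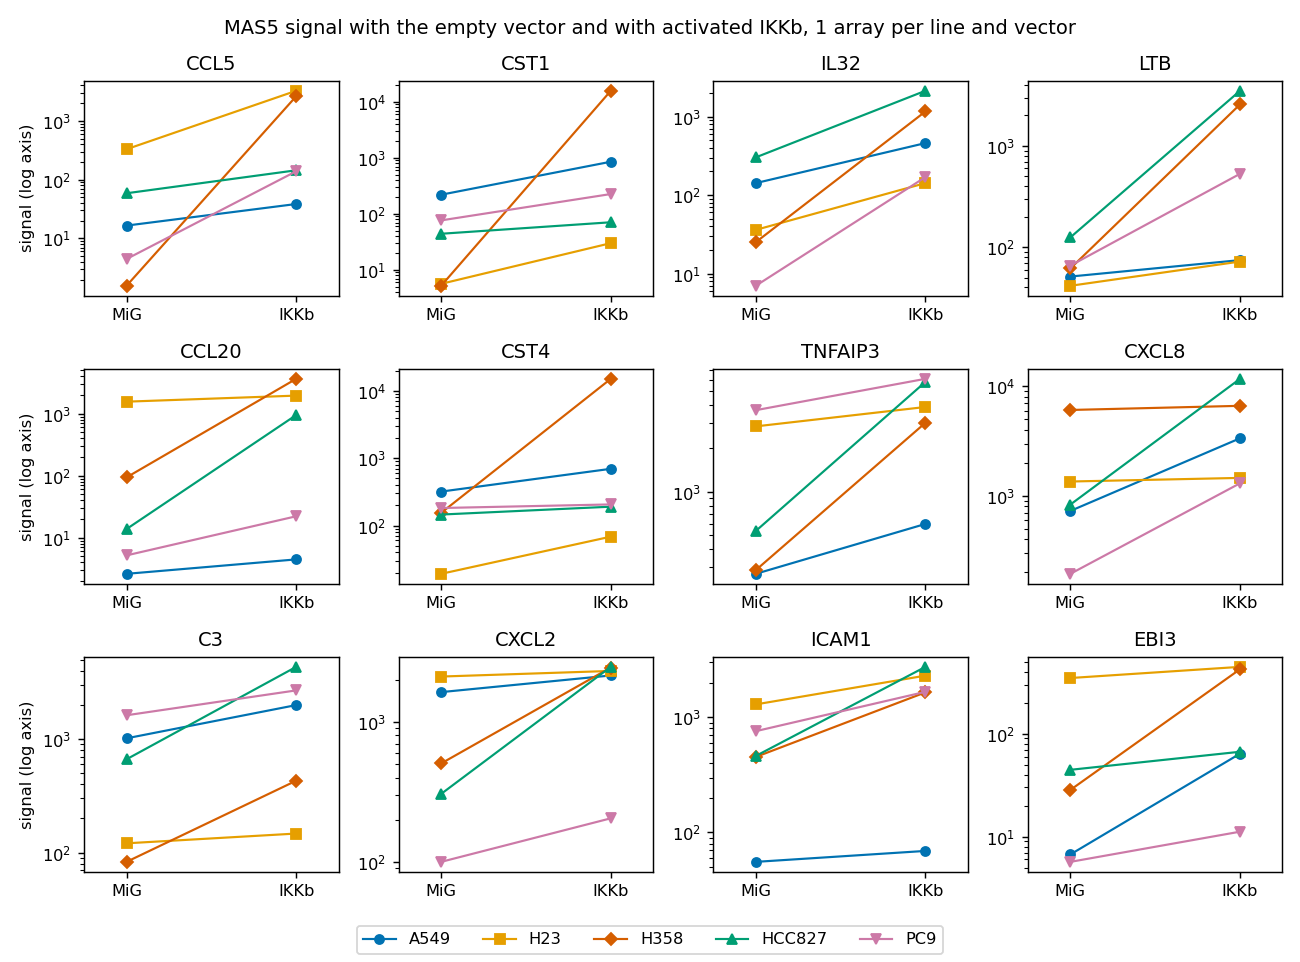
MAS5 signal on a log axis with the empty vector and with IKKb for the 12 genes that led the changes above MiG, 1 line per cell line and 1 array per point. Every line slopes upward; H358 and HCC827 climbed most for LTB, CCL20, TNFAIP3 and CXCL2, and H358 alone for CST1 and CST4.

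Stretches of promoter are shown for genes of the leading and most even sets that hold a match to the kB consensus motif, the 10-base sequence that NF-kB pairs bind, in the 250 bases before the start. They are RefSeq sequences of GRCh38.p14, written 5′ to 3′ on the gene's strand, and capitals mark the match.
IL32, chr16:3065280-3065339 (+ strand): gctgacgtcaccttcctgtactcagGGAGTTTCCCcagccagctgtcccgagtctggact
LTB, chr6:31582477-31582536 (- strand): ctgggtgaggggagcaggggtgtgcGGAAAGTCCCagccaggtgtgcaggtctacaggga
CCL20, chr2:227813738-227813797 (+ strand): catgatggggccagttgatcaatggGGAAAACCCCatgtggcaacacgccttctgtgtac
TNFAIP3, chr6:137867179-137867238 (+ strand): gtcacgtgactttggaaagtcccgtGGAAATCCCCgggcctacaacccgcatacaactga
CXCL2, chr4:74099238-74099297 (- strand): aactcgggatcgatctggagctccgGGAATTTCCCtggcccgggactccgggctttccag
HSD11B1-AS1, chr1:209724293-209724352 (- strand): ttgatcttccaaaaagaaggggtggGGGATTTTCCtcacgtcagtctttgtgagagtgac
OPTN, chr10:13100046-13100081 (+ strand): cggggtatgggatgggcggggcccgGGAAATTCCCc
Both strands were searched, and in all of these but HSD11B1-AS1 the match reads on the strand opposite to the gene. Counted back from the start, the matches lay at bases 89 to 98 in IL32, 77 to 86 in LTB, 70 to 79 in CCL20, 46 to 55 in TNFAIP3 and 68 to 77 in CXCL2. In HSD11B1-AS1 it lay at 193 to 202 and in OPTN at 2 to 11. IL32, TNFAIP3, CXCL2 and OPTN each held 2 matches, and the one nearest the start is marked.

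A gene was counted where any of its promoters in the table held a match. This was so for 6.28% of the 27305 genes in the table and 8.01% of the 12134 tested genes that have a promoter there. Of the 25 genes higher in all lines by a mean of at least 2-fold, 18 had a promoter there and 8 of these held a match (44.4%), namely CCL20, CXCL1, CXCL2, IL32, IL6, LTB, NEURL3 and TNFAIP3. Among all genes higher in all 5 lines, 59 of 395 held one (14.9%), and among those lower in all 5, 45 of 609 (7.39%). CXCL8, ICAM1, EBI3, CD82 and IRAK2 have a promoter in the table without these letters in this window. A match is a description of the sequence and says nothing of whether NF-kB bound it in these cells.

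Among the NF-kB subunits RELB had the largest mean ratio. Of 9 measured subunits and IkB proteins, 5 were higher in all 5 lines, 0 were lower in all 5, 6 had an unadjusted limma p below 0.05, and the median was 0.39. RELB, the transactivating subunit of the non-canonical pathway, had MiG signals of 229, 548, 70.9, 309 and 278 and IKKb signals of 395, 847, 419, 712 and 408. Its folds were 1.68, 1.53, 5.01, 2.24 and 1.44, so H358, the line with the lowest MiG signal, gained most. The mean log2 ratio was 1.07 ± 0.74 (SD, n = 5), with a limma adjusted p of 0.619. NFKB2, which encodes the precursor of RELB's partner, had MiG signals of 509, 1112, 66.5, 229.7 and 269 and IKKb signals of 721, 1542, 196, 447 and 362, again highest in fold in H358. Its mean was 0.73 ± 0.41 (SD, n = 5), a further probe set lay at 0.54 with A549 lower, and the mean of the NFKB2 probe sets was 0.35. NFKB1, the p50 precursor gene, was at 0.39 ± 0.18 (SD, n = 5), RELA at 0.25 ± 0.27 (SD, n = 5) and REL at 0.05 ± 0.24 (SD, n = 5). RELA was at 0.16 without A549, and REL turned to -0.03 without H358 and was at 0.13 without A549. These differences between subunits were not tested. BCL3 shares its probe set with another gene and was not analysed here.

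Of the 12 feedback regulators and adaptors measured, 6 were higher in all 5 lines and 0 lower in all 5, 7 had an unadjusted limma p below 0.05, and the median was 0.45, or 0.29 without H358. The IkB genes NFKBIA and NFKBIE, given next, belong to the list of subunits and IkB proteins above and not to these 12. NFKBIA, the gene of IkBα, had MiG signals of 4581, 9329, 2199.5, 2058 and 1185 and IKKb signals of 5306, 9949.9, 8602, 6877 and 1384. H358 and HCC827 differed by 3.89-fold and 3.32-fold and the other 3 lines by at most 1.17-fold. A dimmer NFKBIA probe set had a mean log2 ratio of 0.10 and was higher in 3 of 5 lines. NFKBIE, which encodes IkBε, had MiG signals of 229, 386, 347, 454 and 417 and IKKb signals of 283, 667, 1066, 1537 and 578, a mean log2 ratio of 0.96 ± 0.65 (SD, n = 5) with a limma adjusted p of 0.590. TNFAIP3 encodes A20, an enzyme that edits ubiquitin on NF-kB signalling proteins and shuts the pathway off. Its MiG signals were 269, 2840.0, 285, 533 and 3679 and its IKKb signals 597, 3872, 3007, 5782 and 6075, with folds of 2.15, 1.36, 10.04, 10.6 and 1.65. The 2 lines with the highest MiG signals, H23 and PC9, had the smallest folds. TNIP1, whose product works with A20, had MiG signals of 2156, 1119.7, 2225, 3360.3 and 4132 and IKKb signals of 2579.9, 1691, 5437, 7498 and 5277, a mean of 0.73 ± 0.47 (SD, n = 5) and a limma adjusted p of 0.590. TRAF1, an adaptor of TNF receptors, was at -0.15 in A549 and between 0.73 and 2.43 in the other lines, and the deubiquitinase gene CYLD had a mean of 0.60 ± 0.62 (SD, n = 5), or 0.33 without H358 and 0.29 with the mean of its probe sets.

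The IKK complex and its upstream kinases had a list median near 0. Of 17 measured genes, 1 was higher in all 5 lines (3.29% of all tested genes were) and 0 were lower in all 5 (4.83%), and the median was 0.03. The member higher in all lines was IRAK2, which acts downstream of interleukin-1 and Toll-like receptors and had the smallest p of all genes. Its MiG signals were 362, 314, 784, 599 and 859 and its IKKb signals 655, 495, 2138, 1891 and 1183. The folds were 1.77, 1.55, 2.69, 3.10 and 1.37, with H358 and HCC827 above the other 3 lines. The mean log2 ratio was 0.99 ± 0.51 (SD, n = 5) with a limma adjusted p of 0.354. A dimmer IRAK2 probe set lay at 0.27 with 3 of 5 lines higher. IKBKB, the gene of the transduced kinase, is read by 3 probe sets. The brightest had a mean log2 ratio of -0.19 and the next -0.08, while the dimmest had 1.06 and was higher in 5 of 5 lines. The labels do not say which of them lie within the transduced sequence.

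OPTN, on its brightest probe set, was higher by nearly the same factor in all 5 lines. It encodes an autophagy receptor that binds ubiquitin chains and restrains NF-kB signalling, and had MiG signals of 1215, 1389, 754, 1485 and 598 and IKKb signals of 1813, 2056, 1268, 2273 and 848. The folds were 1.49, 1.48, 1.67, 1.52 and 1.41, a mean log2 ratio of 0.59 ± 0.09 (SD, n = 5), and H358 and HCC827 did not stand out on this probe set. A further OPTN probe set was also higher in all 5 lines but less even. It lay at 1.34 in H358 and 0.86 in A549, against 0.51 to 0.54 in H23, HCC827 and PC9. The limma adjusted p of the brightest probe set was 0.878 in a fit whose estimate of spread also draws on other genes and on the 5 arrays of another vector. CD82 and HSD11B1-AS1 were named for the size of the ratio in their least changed line and were less even. CD82, a tetraspanin gene, had MiG signals of 99.5, 128, 47.4, 305 and 236 and IKKb signals of 166, 191, 352, 817 and 373, with a mean of 1.14 ± 0.85 (SD, n = 5). HSD11B1-AS1, an antisense RNA gene, had a mean of 0.91 ± 0.36 (SD, n = 5) at signals near background, 5.76 to 63.8 with MiG. In all, 16 genes were at least 1.3-fold higher in every line and 9 at least 1.3-fold lower, and 14 of the 16 and all 9 had at least 3 of 5 signals above the 40th percentile on the brighter vector.

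**Figure D3:**
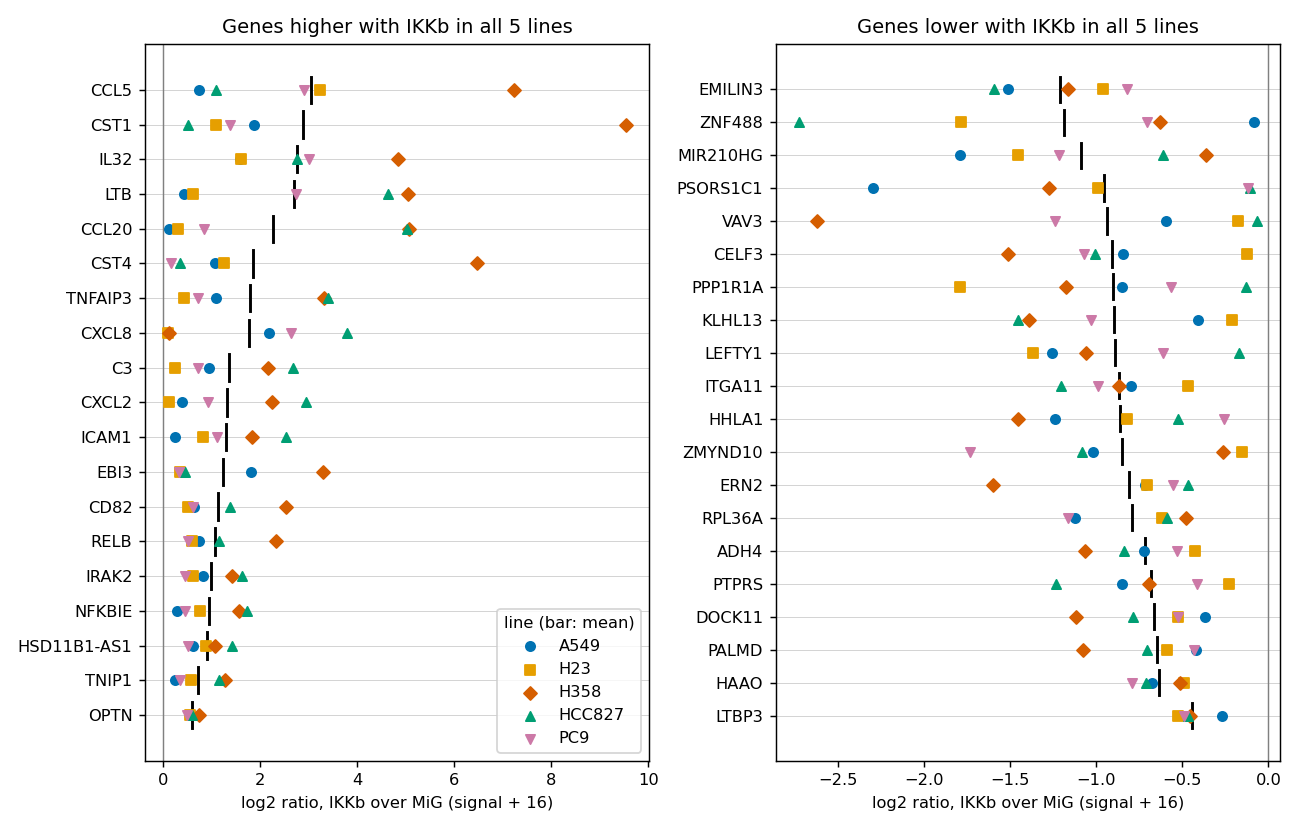
Log2 ratio of IKKb to MiG in each of the 5 lines (points) with their mean (bars), for leading genes higher (left) and lower (right) in all 5 lines. CST1 and CCL5 spread over several log2 units between lines, whereas the 5 points of OPTN, from its brightest probe set, lie between 0.49 and 0.74.

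Among interleukins, TNF family members and adhesion genes, the list medians were low and single members had larger ratios. Of 16 interleukins and their receptors, 2 were higher in all 5 lines (IL32 and IL6), 0 were lower in all 5 and the median was 0.22. IL6, an acute-phase cytokine, had MiG signals of 28.8, 83.2, 289.9, 1617 and 725 and IKKb signals of 71.3, 111, 427, 12460.5 and 953. HCC827 was the line with the highest level and by far the largest fold, 7.64. Of 17 TNF and TNF receptor superfamily members and colony-stimulating factors, 4 were higher in all 5 lines, 0 were lower in all 5 and the median was 0.13. TNF itself had a mean log2 ratio of 0.82 ± 0.36 (SD, n = 5) and TNFRSF1B, a TNF receptor, 0.84 ± 1.18 (SD, n = 5), or 0.32 without H358. ICAM1, the ligand of leukocyte integrins, had MiG signals of 55.5, 1295, 453, 461 and 758 and IKKb signals of 69.03, 2304, 1649, 2747 and 1666. It was low in A549 with both vectors and higher in the other 4 lines by 1.77-fold to 5.79-fold, with a mean of 1.31 ± 0.89 (SD, n = 5). A further ICAM1 probe set had a mean of 1.19. Another had 0.62, with log2 ratios of only 0.08 in H23 and 0.29 in H358. CD47, a signal that inhibits phagocytosis, had a mean of 0.36 ± 0.20 (SD, n = 5) and was higher in all 5 lines, and CD274, the gene of PD-L1, 0.16 ± 0.40 (SD, n = 5) and was higher in 2 of 5. Leaving out 1 line put CD274 between 0.05 (without H23) and 0.26 (without A549), with 0.06 without HCC827. The 11 measured adhesion and immune surface genes had 4 members higher in all 5 lines, 0 lower in all 5 and a median of 0.30.

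Of 16 measured genes of MHC class I presentation 8 were higher in all 5 lines and 0 lower in all 5, 5 had an unadjusted limma p below 0.05, and the list median lay between 0.21 (A549) and 0.40 (H358) in the single lines. The immunoproteasome subunit PSMB8 had a mean log2 ratio of 0.49 ± 0.35 (SD, n = 5), PSMB9 0.44 ± 0.24 (SD, n = 5) and the peptide-loading factor TAPBP 0.44 ± 0.30 (SD, n = 5). HLA-B, a classical heavy chain, had a mean of 0.27 ± 0.33 (SD, n = 5), or 0.18 without H358, and was lower in HCC827 at -0.23. Probe sets of HLA genes can bind transcripts of related genes. Interferon-stimulated genes had a median of 0.00 (0.15 without H358) over 24 measured members, with 2 higher in all 5 lines, the guanylate-binding GTPase GBP1 (0.73 ± 0.48 (SD, n = 5)) and the transcription factor IRF1 (0.48 ± 0.25 (SD, n = 5)), and 1 lower in all 5, MX2 (-0.48 ± 0.47 (SD, n = 5), or -0.27 without PC9). Over all tested genes 3.29% were higher and 4.83% lower in all 5 lines, so counts this small are no result about the list. Further GBP1 probe sets were higher in 5, 4 and, for a dim set, 3 of 5 lines, and a further IRF1 probe set in 4 of 5. In H358 the list median was -0.34, with IFIT1 at -1.45 and OAS1 at -1.39.

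Of 15 measured effector enzyme, complement and acute-phase genes 4 were higher in all 5 lines and 0 lower in all 5, and the list median of 0.36 reached 1.302 for HCC827, the other lines ranging from 0.16 to 0.46. C3, the central complement protein, had MiG signals of 1015, 121, 82.8, 663 and 1620.5 and IKKb signals of 1993, 147, 429.6, 4327 and 2684. SOD2, the mitochondrial superoxide dismutase, had MiG signals of 286, 524, 161, 255 and 243 and IKKb signals of 340.0, 586, 737, 1266 and 420.2, so H358 and HCC827 differed by 4.25-fold and 4.73-fold and A549 and H23 by 1.18-fold and 1.12-fold. The pattern recognition gene PTX3 was higher by 3.78 and 4.16 in H358 and HCC827 and lay at -0.24 in A549. Among 14 proteases and their inhibitors 2 were higher in all 5 lines and 0 lower in all 5, with a median of 0.16, or 0.09 without H358. MMP9, a gelatinase, had MiG signals of 128, 647, 1117, 102 and 136 and IKKb signals of 106, 791, 27261, 2158 and 482. The gain was largest in H358, and A549 lay slightly below its MiG signal. INHBA, an activin subunit, was higher by 3.88 in H358 and 3.31 in HCC827 and lay at -0.73 in A549.

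Salivary-type cystatins, which are secreted inhibitors of cysteine proteases, had large ratios in H358. CST1 had MiG signals of 220.0, 5.63, 5.20, 44.2 and 76.6 and IKKb signals of 854, 30.03, 15801, 70.8 and 226. Its log2 ratio in H358 was 9.54 against 0.53 to 1.88 in the other lines, with a mean of 2.89 ± 3.75 (SD, n = 5) and 1.22 without H358. CST4 had MiG signals of 319, 19.2, 154, 146 and 182 and IKKb signals of 696, 68.4, 15079, 191 and 206, a mean of 1.87 ± 2.62 (SD, n = 5) and 0.72 without H358. CST2 went from 30.7 to 6689 in H358. These genes are closely related copies on chromosome 20, so a probe set can read more than 1 of them and the share of each is uncertain.

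Other large shifts appeared in 1 or 2 lines. In H358 the list of mesenchymal genes had a median of 0.86, with 6 of 16 members at least 2-fold higher, against -0.30 to 0.30 in the other 4 lines, and the median over the lines was 0.20, or 0.06 without H358. ZEB1, a repressor of epithelial genes, was higher by 2.02 in H358 and 1.96 in HCC827, and VIM, the gene of vimentin, by 1.13 in H358. The epithelial list lay at -0.29 in H358, where the sodium channel subunit SCNN1A was at -2.24. Cholesterol synthesis and uptake genes had a median of -0.67 in H358 and -0.19 to 0.06 in the other lines. Over the lines it was -0.17, or -0.06 without H358. Of 12 measured members 0 were higher and 3 lower in all 5 lines, STARD4 (-0.40 ± 0.41 (SD, n = 5)), SREBF2 (-0.33 ± 0.17 (SD, n = 5)) and IDI1 (-0.25 ± 0.29 (SD, n = 5)). Without H358 STARD4 was at -0.24 and IDI1 at -0.13, and further probe sets of SREBF2 and IDI1 were lower in only some of the lines. CEACAM5, a carcinoembryonic antigen, moved in opposite directions, from 246 to 1576 in A549 and from 528 to 24.1 in H358. A further CEACAM5 probe set lay near 0 in both, at log2 ratios of 0.15 and -0.18. The glutathione peroxidase GPX2 went from 303 to 8.51 in H358, and BCL2A1, an antiapoptotic gene, from 22.5 to 745 in HCC827. All of these H358 values rest on the array that stood apart.

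Genes lower with IKKb differed by less, and many were dim. EMILIN3, an extracellular matrix protein gene, led them, with MiG signals of 87.96, 161, 54.4, 85.4 and 66.6 and IKKb signals of 20.5, 74.8, 15.4, 17.5 and 30.8. All lines lost signal, but 4 of the 5 IKKb values lay below the 40th percentile, so the mean of -1.21 ± 0.34 (SD, n = 5) (limma adjusted p 0.619) depends on the background. ZNF488 (-1.19 ± 1.06 (SD, n = 5)), MIR210HG (-1.09 ± 0.59 (SD, n = 5)) and ITGA11, an integrin chain (-0.87 ± 0.27 (SD, n = 5)), were similarly dim with IKKb, and a further MIR210HG probe set lay at -0.08. Some brighter genes were lower by smaller amounts. LTBP3, which binds latent TGF-beta, had MiG signals of 1602, 618, 3390.1, 653 and 1093 and IKKb signals of 1325, 424, 2463, 468 and 772, a mean of -0.44 ± 0.10 (SD, n = 5), but its other probe sets lay at -0.06 and 0.31. DOCK11, an exchange factor for the GTPase CDC42, had MiG signals of 473, 280.2, 465, 176 and 517 and IKKb signals of 363, 190.0, 205, 95.5 and 354, a mean of -0.66 ± 0.30 (SD, n = 5) with a limma adjusted p of 0.590. Its other probe set lay at 0.12. PTPRS, a receptor tyrosine phosphatase, had MiG signals of 350.8, 838, 709, 824 and 588 and IKKb signals of 187, 714, 432, 341 and 436, a mean of -0.68 ± 0.39 (SD, n = 5). Its 2 further measured probe sets had means of only -0.14 and -0.10 and were higher in 3 and 2 of 5 lines. The mean of the PTPRS probe sets was -0.22. PALMD (-0.65 ± 0.27 (SD, n = 5)), ADH4, an alcohol dehydrogenase (-0.72 ± 0.25 (SD, n = 5)), and HAAO, an enzyme of tryptophan breakdown (-0.64 ± 0.13 (SD, n = 5)), were also lower in all 5 lines.

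The remaining lists had medians between -0.22 and 0.20, against -0.01 for all genes. Medians of the mean ratios were 0.13 for AP-1 and immediate-early genes, 0.03 for the TGF-beta and activin pathway, 0.05 for anti-apoptotic and cell-death genes, -0.04 for epithelial genes and 0.00 for cell cycle and DNA replication. Hypoxia and glycolysis lay at -0.02, with 2 of 15 members lower in all 5 lines (4.83% of all tested genes were), the unfolded protein and integrated stress response at 0.10, p53 targets at -0.12, NRF2 targets at 0.13 and ribosomal proteins at 0.08. Markers of alveolar and airway epithelium lay at -0.22 (2 of 11 lower in all 5 lines), those of leukocytes at 0.20 over 6 measured genes and those of fibroblasts and endothelium at -0.19 over 8. Without H358 the medians were 0.05 for leukocyte markers, -0.03 for fibroblast and endothelial markers, -0.04 for p53 targets, -0.10 for the TGF-beta and activin pathway, -0.05 for ribosomal proteins, 0.08 for NRF2 targets, 0.02 for anti-apoptotic genes, and -0.05 for the cell cycle and for hypoxia and glycolysis. In single lines the median of alveolar and airway markers ran from -0.62 (HCC827) to 0.12 (H23). That of ribosomal proteins ran from -0.34 (HCC827) to 0.57 (H358). None of the 27 lists had a member past limma's threshold.

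**Figure D4:**
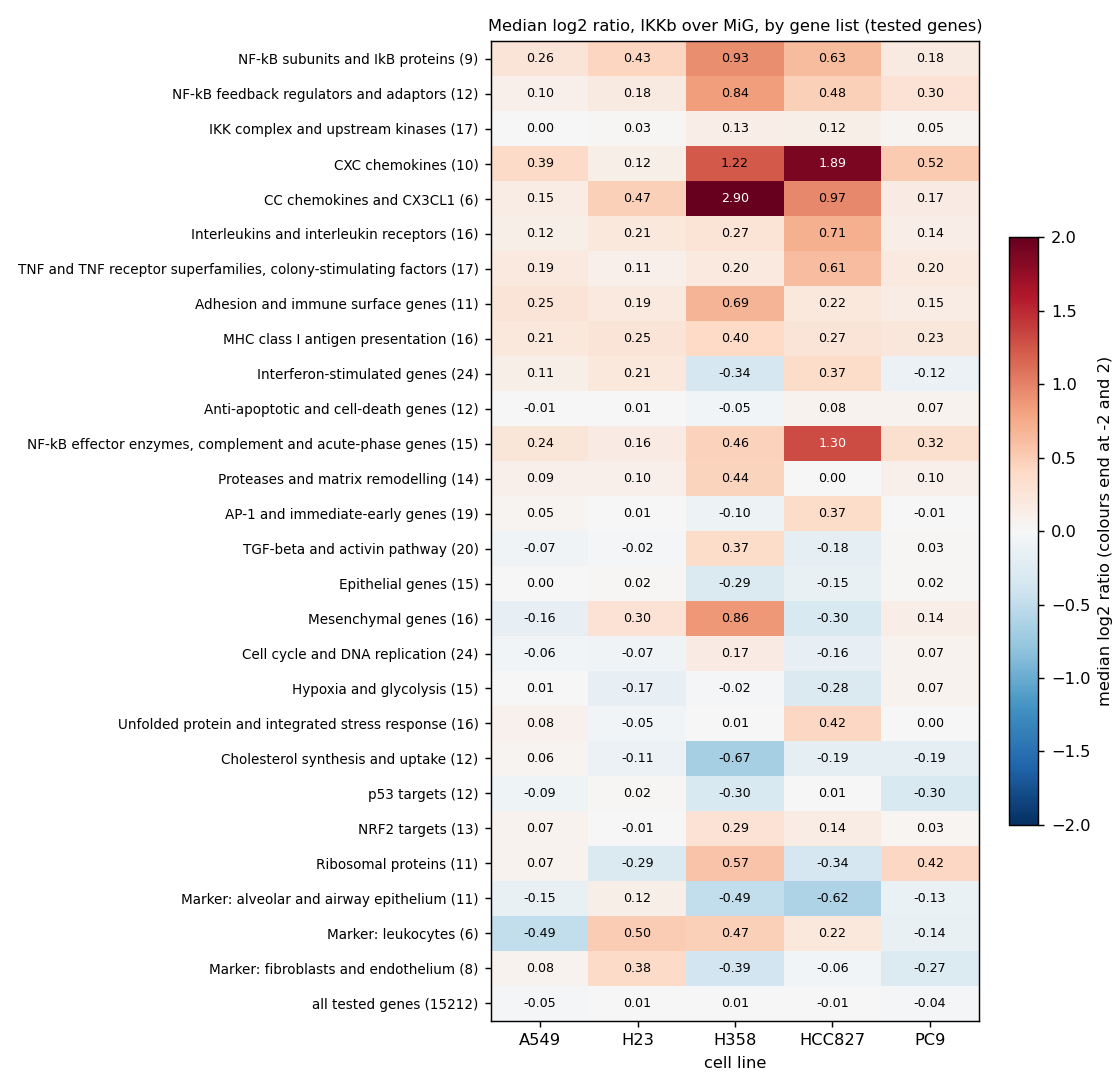
Heat map of the median log2 ratio of IKKb to MiG over the tested members of each of the 27 gene lists (rows, number of members in brackets) in each line (columns), with all tested genes in the bottom row; red is above 0, blue below 0, and colours end at -2 and 2. The darkest red cells are those of the chemokine lists, with H358 at 2.90 for CC chemokines and HCC827 at 1.89 for CXC chemokines.

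Across all genes the lines shared little. Over 15212 genes Pearson's r between the ratios of a pair of lines ran from -0.04 (H23 and PC9) to 0.12 (H358 and PC9), with H358 and HCC827 at 0.10. Over the 7606 brighter genes r ran from -0.08 to 0.27 for the same pairs, with H358 and HCC827 at 0.11. Over the 70 measured genes of the lists of NF-kB subunits, feedback regulators, IKK kinases, chemokines and interleukins it ran from 0.15 (A549 and H23) to 0.69 (H358 and HCC827). Each line has its own MiG array, so no control is shared between lines, and these values are across genes, which are not independent replicates. They describe where the ratios of a pair of lines lie. Dim genes with noisy signals make up much of the set of 15212, and their part in its low r was not tested.

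**Figure D5:**
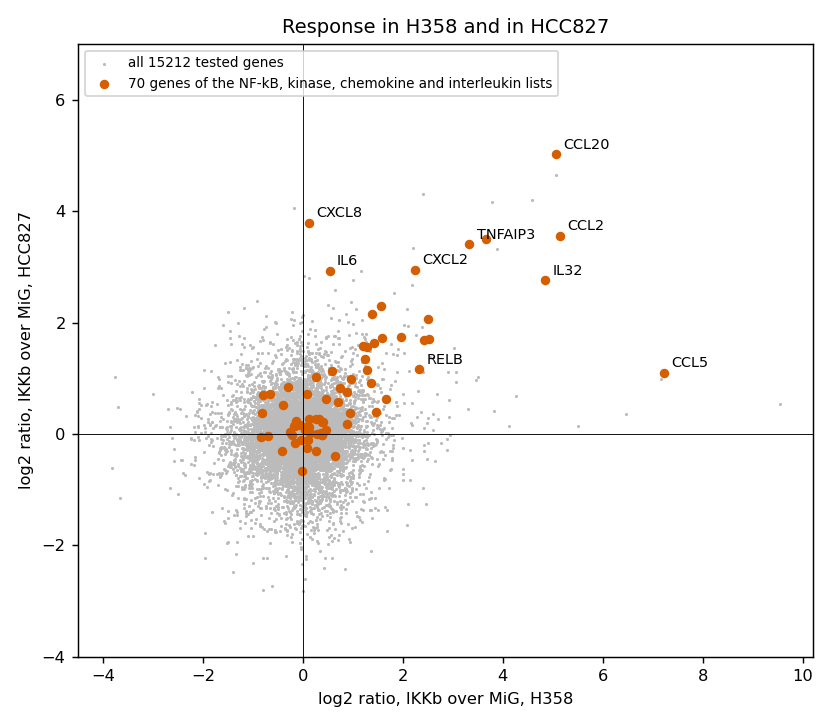
Log2 ratio of IKKb to MiG in HCC827 against that in H358, 1 point per gene, with the 70 genes of the NF-kB, kinase, chemokine and interleukin lists in orange over the 15212 tested genes in grey. The grey cloud shows little slope (r = 0.10), while the marked genes extend together to the upper right (r = 0.69).

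Another vector in the same lines, IkB_SR, carried a super-repressor form of IkBα, and it was set against the same MiG arrays, so its values share their controls with those above. IL32 had a mean log2 ratio of 2.76 with IKKb and -1.76 with IkB_SR, TNFAIP3 1.80 and -1.59, RELB 1.07 and -1.09, OPTN 0.59 and -0.73 and IRAK2 0.99 and -0.57. CCL5 had 3.05 and -0.16, CD82 1.14 and 0.04 and SOD2 1.09 and 0.15. Of the lower genes DOCK11 had -0.66 and 0.49 and PALMD -0.65 and 0.59.

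Mouse Lewis lung carcinoma cells, titled LLC-kB OVA in the labels, with the MiG and IKKb vectors, 2 arrays each, share no array with the human lines. Of the 25 genes higher in all human lines by a mean of at least 2-fold, 9 could be matched by symbol to a tested mouse gene. In 8 of these (88.9%) both IKKb arrays lay above both MiG arrays, against 11.1% of the 9706 matched genes. A mouse gene was tested where it exceeded the 40th percentile on at least 2 of the 4 arrays. A gene silent with MiG could thus enter only through its IKKb arrays, which fixes its direction. This may hold for dim genes such as Ccl5, so the share is a description and no test of the human result. The 8 were CCL5, CD82, CXCL1, NEURL3, RELB, SLC2A6, SOD2 and TNFAIP3. The signals of Cd82 were 275 and 82.8 with MiG and 1201 and 647 with IKKb, those of Relb 139.8 and 95.5 with MiG and 624 and 338 with IKKb and those of Ccl5 6.61 and 9.61 with MiG and 119 and 74.1 with IKKb. Irak2 and Dock11, whose human counterparts were among the genes with the smallest p, had overlapping groups, with Irak2 at 218 and 305 with MiG and 236 and 281 with IKKb. Nfkbie was at 67.9 and 107 with MiG and 1376 and 976 with IKKb, and Ltbp3 was lower on both IKKb arrays, at 4842 and 3037 with MiG and 2738 and 2334 with IKKb.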

How the data were processed

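Biotinylated cRNA from total RNA was hybridised to Affymetrix arrays, 1 sample each, per the labels' protocols. The authors deposited linear MAS5 intensity values per probe set, computed with GCOS 1.4, per the submitters' processing notes, and scaling to a common mean removes differences in total RNA. Of 54675 human probe sets 41097 name 1 gene, 1801 several and 11777 none, and those naming 1 gene were used, with symbols updated through the gene identifier. Ratios were taken on log2 of the signal plus 16. The two-sided moderated test of limma 3.58.1 under R 4.3.3, whose prior variance followed intensity, was run on all 15 human arrays, with cell line as a block and Benjamini-Hochberg adjustment over 15212 genes at a threshold of 0.05. The labels pair the arrays by line, and the deviations of MiG and IKKb arrays of a line correlated across genes at 0.85 to 0.92. The 4 mouse arrays were fitted alone. The number of arrays limits the precision. Figures used matplotlib 3.10.9 in Python 3.11.15.

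Named genes were up to 12 per direction with the largest mean change among those of the same sign in all lines with an unadjusted p below 0.05, up to 8 with the largest change in their least changed line, 4 with the smallest p, 4 per direction and line with the largest ratio, up to 3 per list, and 26 NF-kB, cytokine and immune genes whatever their values. The first groups also asked for 3 of 5 signals above the 40th percentile on the brighter vector. Other genes named as examples from a list were chosen after their values were seen, and some genes that the rule picks are left out here. BIRC3 of the fixed set was not analysed here. The rule, the 27 lists and the comparison were chosen with earlier results of these data known. The test was checked on simulated data. The processing was varied with a pseudocount of 1 or 64, quantile normalisation, median centring, no filter or one at the 60th percentile, the mean of a gene's probe sets, no trend, a robust prior, the 10 arrays alone, no block, and leaving out each line or the H358 IKKb array.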

Additional observations from a re-analysis of the deposited data

Results flagged for a closer look

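Over the 5 lines, 108 named genes and list medians were searched for a line that stood apart from the other 4 by more than Dixon's critical value, and 17 had one. Chance alone marks about 1 in 20 groups drawn without regard to their values, and the genes and lists are not independent of each other. Many of these genes were picked for a large mean change, which 1 extreme line can produce. The rate of 1 in 20 therefore does not hold for them, and 17 cannot be read as an excess.

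H358 was the line apart in 9 of them. CST1 lay at a log2 ratio of 9.54 there, with the other lines between 0.53 and 1.88, and CST4 at 6.47, with the others between 0.16 and 1.26. TNFRSF1B lay at 2.92 (others 0.06 to 0.61) and TAPBP at 0.97 (others 0.23 to 0.39). FOXA2, a factor of endoderm-derived epithelium, lay at -1.85 (others -0.39 to -0.05), ERN2 at -1.60 (others -0.72 to -0.47) and IDI1 at -0.75 (others -0.24 to -0.03). Further probe sets of these genes did not all single out H358. A further ERN2 set was lowest in A549, with H358 at -0.36, and further TAPBP sets were highest in A549 or H23. A further FOXA2 set was lowest in H358, at -1.09, but another lay at 0.50 there. A further IDI1 set was also lowest in H358, at -0.68, but its other sets were not. The adhesion and immune surface list had a median of 0.69 in H358 (others 0.15 to 0.25) and the protease list 0.44 (others 0.00 to 0.10). The H358 IKKb array also differed in spike-in and actin signals, and its part in these values was not tested.

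HCC827 stood apart for IL6, at 2.93 (others 0.36 to 0.96), and for 4 list medians. These were 0.71 for interleukins (others 0.12 to 0.27), 0.61 for the TNF superfamilies (others 0.11 to 0.20), 1.302 for effector enzymes and complement (others 0.16 to 0.46) and 0.42 for the unfolded protein and integrated stress response (others -0.05 to 0.08). In the last list ASNS, an amino acid synthesis gene, lay at 1.75 in HCC827.

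A549 stood apart for LTBP3, at -0.27 (others -0.53 to -0.46), and PFKFB4, a glycolytic regulator, at -1.07 (others -0.49 to -0.32). H23 stood apart for SREBF2, the gene of a regulator of cholesterol synthesis, at -0.63 (others -0.29 to -0.21). On further probe sets A549 was not the highest line for LTBP3, and H23 was not the lowest for SREBF2.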

How the results depend on the processing

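For the 81 named genes, 1352 of 1355 values under 17 alternatives kept their direction and stayed on the same side of limma's threshold. Much of this was fixed in advance, so the share is no test of robustness. Many of these genes were picked for the same sign in all lines, so leaving out a line could not reverse their mean. Changing the prior, the block or the filter left a fold change as it was. The smallest limma adjusted p of the main fit was 0.354, so the same side means only not past the threshold. The 3 that reversed were REL, at -0.039 with the mean of the probe sets and from -0.035 (without H358) to 0.13 (without A549) when 1 line was left out, and IKBKB, at 0.26 with the mean of the probe sets. With that mean 1 gene passed the threshold, RAP1A, at a log2 fold change of -0.995 (limma adjusted p 0.00635), whereas its brightest probe set gave -0.03. The other alternatives called 0 genes. The counts of genes higher and lower in all lines by a mean of at least 2-fold were 58 and 56 with a pseudocount of 1, and 14 and 0 with 64. The lower count was 2 with a filter at the 60th percentile and 7 without the H358 IKKb array. When 1 line was left out, the higher count ran from 20 to 54 and the lower from 7 to 18, and genes at an unadjusted p below 0.05 from 676 to 829. With no replicate block that last count was 44 instead of 839, and 0 genes were called. In the mouse fit, limma called 0 genes without a block (238 at an unadjusted p below 0.05) and 223 with the replicate number as a block; the mouse numbers are not known to pair the arrays, whose same-numbered deviations correlated at 0.53. Leaving out a mouse replicate leaves 1 array per vector and no test, and was not run. The median over all genes was 0.00 with quantile normalisation and 0.02 with centring, against -0.01. The cause of each of these shifts was not tested. Signal over background limits the dim genes: with MiG, IL32, CCL5 and CCL20 were above the 40th percentile on 2 of 5 arrays each.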

Other observations

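Several further genes of the set higher in all 5 lines are not classical cytokines or NF-kB regulators. SLC2A6, a hexose transporter gene, had MiG signals of 655, 571, 177, 141 and 41.2 in A549, H23, H358, HCC827 and PC9 and IKKb signals of 779, 927, 763, 215 and 170.3, a mean log2 ratio of 1.04 ± 0.77 (SD, n = 5). NEURL3, a ubiquitin ligase gene, had MiG signals of 51.8, 32.6, 56.7, 172 and 226 and IKKb signals of 73.2, 104, 452, 292 and 339, a mean of 1.13 ± 0.94 (SD, n = 5), or 0.74 without H358. Both were also higher on both mouse IKKb arrays, Slc2a6 at 27.8 and 25.6 with MiG and 70.8 and 77.5 with IKKb and Neurl3 at 5.16 and 53.2 with MiG and 151 and 121 with IKKb. Mouse genes this dim with MiG may have passed the filter only through their IKKb arrays. TNFRSF11B encodes osteoprotegerin, a decoy receptor, and had MiG signals of 42.8, 773, 18.01, 63.3 and 106 and IKKb signals of 62.3, 933, 102, 198 and 434. COXFA4L3 had a mean of 1.07 ± 0.85 (SD, n = 5) and was above the 40th percentile on all 5 MiG arrays, whereas GIMAP5 (1.02 ± 0.69 (SD, n = 5)) and KLRC3 (1.13 ± 1.11 (SD, n = 5), or 0.69 without HCC827) were above it on 1 and 2 of 5. CD74, the invariant chain of MHC class II, was among the genes 2-fold higher in 4 lines, with MiG signals of 11.4, 14.7, 45.3, 5283 and 4.53 and IKKb signals of 9.70, 47.8, 279, 11692 and 34.1.

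Among the genes with the largest ratio in a single line, each a value of 1 array pair, several were lower. The growth factor FGF19 went from 129 to 4.84 in HCC827. The receptor tyrosine kinase RET went from 144 to 20.9 in PC9, and PTGDS, a prostaglandin synthase, from 139.7 to 11.8. PDK4, a mitochondrial kinase that restrains pyruvate oxidation, went from 793 to 201 in H23, and PADI3, a protein deiminase, from 361 to 13.6 in H358. With the mean of the probe sets the PC9 ratios of RET and PTGDS were -0.64 and -0.93, against -2.12 and -2.49.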
